A study of Mus musculus with 6 samples.

Results

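The genes of fatty acid and triglyceride synthesis described here are Srebf1, Fasn, Acaca, Acacb, Acly, Scd1, Elovl6, Gpam, Dgat1 and Dgat2. They were chosen by symbol as textbook members of the pathway, and all 10 were found among the 43346 gene IDs of each library. The libraries are RNA-seq of whole liver from C57BL6 mice aged 3 months, 3 labelled DKO and 3 labelled Control. DKO stands for loss of β-catenin (Ctnnb1) and γ-catenin (Jup) in hepatocytes, while the labels describe the other group only as Control. The sources used here name neither the Cre driver nor the alleles. Nor do the labels say whether the 3 libraries of a group are 3 animals, and p-values therefore reflect the spread between libraries, which may be technical.

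Hepatocytes turn surplus carbohydrate into fat. Citrate leaves the mitochondrion and ATP citrate lyase (Acly) splits it into acetyl-CoA, which acetyl-CoA carboxylase (Acaca, in the cytosol) converts to malonyl-CoA. Fatty acid synthase (Fasn) builds palmitate from it, Elovl6 lengthens palmitate to stearate, and Scd1 introduces a double bond. The mitochondrial enzyme Gpam puts the first acyl chain onto glycerol-3-phosphate, and Dgat1 or Dgat2 adds the last one to make triglyceride. Acacb, a carboxylase at the mitochondrial surface, makes the malonyl-CoA that restrains fatty acid oxidation. SREBP-1, encoded by Srebf1, is a transcription factor that responds to insulin and turns on most of these enzymes.

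SREBP-1 acts at these promoters together with NF-Y, which binds the CCAAT box, so the 250 bases upstream of 2 of the genes are shown with that box in capitals on either strand (CCAAT or ATTGG). The windows come from RefSeq on GRCm38.p6, lie on the minus strand and read 5′ to 3′. Fasn, the best known target, has chr11:120824548-120824797. Srebf1 has chr11:60210472-60210721, upstream of its innermost listed start.
Fasn: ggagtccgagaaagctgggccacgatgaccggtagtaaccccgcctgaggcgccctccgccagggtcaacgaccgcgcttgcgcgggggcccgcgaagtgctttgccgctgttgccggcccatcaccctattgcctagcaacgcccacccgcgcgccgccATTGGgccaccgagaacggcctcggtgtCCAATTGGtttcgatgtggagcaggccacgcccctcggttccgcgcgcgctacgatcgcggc
Srebf1: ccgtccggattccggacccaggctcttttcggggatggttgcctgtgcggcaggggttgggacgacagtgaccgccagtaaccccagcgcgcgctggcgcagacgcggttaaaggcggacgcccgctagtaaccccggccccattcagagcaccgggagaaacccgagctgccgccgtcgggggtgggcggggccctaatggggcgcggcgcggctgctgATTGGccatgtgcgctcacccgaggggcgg
The Fasn window held 3 CCAAT boxes, of which a pair on opposite strands overlap, and this Srebf1 window held 1 CCAAT box. Windows were found for 7 of the 10 genes, 10 windows in all. Dgat1, Dgat2 and Scd1 had none in the RefSeq table. A CCAAT box was present in 5 of the 10 windows, belonging to Fasn, Srebf1, Acacb and Gpam, and in 33.8% of all 32851 windows. The GC box GGGCGG was found in 4 windows, belonging to Srebf1, Acly and Gpam, and in 32.7% of all windows. The E-box CACGTG was found in 0 of the 10 windows and in 6.02% of all. Both strands were searched, and a match of letters is not a binding site.

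The DKO libraries held little liver RNA, and the part of this in the values below was not tested. They held 309731, 525037 and 1491237 reads assigned to genes, against 15869639, 13953699 and 12320487 in the Control libraries. That was 2.68% to 4.74% of all reads in DKO and 33.3% to 34.9% in Control. Mitochondrial genes took 6.27%, 14.4% and 62.7% of the gene reads in DKO replicates 1, 2 and 3, against 6.34% to 6.57% in Control. DKO replicate 3 stood apart in this, and without mitochondrial genes the DKO libraries held 290317, 449579 and 555677 gene reads. Albumin (Alb) took 0.0933%, 3.08% and 0.322% of gene reads in DKO replicates 1, 2 and 3, against 6.58% to 7.66% in Control. Olfactory and vomeronasal receptor genes, which liver does not use, took 823 to 1789 CPM (counts per 1000000 gene reads) in DKO and 9.10 to 14.1 CPM in Control. The share of reads assigned to genes, the albumin share and the receptor CPM each separated the groups. For each of these 3 measures a two-sided exact permutation test gave p = 0.1, the smallest that 3 against 3 libraries allow (adjusted p = 0.1). The mitochondrial share lay on both sides of Control and was not tested. Ctnnb1 had 0, 52 and 65 reads in DKO and 2945, 2896 and 2650 in Control (log2 fold change -2.26, edgeR adjusted p = 0.171). Jup had 6, 1 and 11 reads in DKO and 339, 270 and 196 in Control (log2 fold change -1.68, edgeR adjusted p = 0.0847). The targeted genes were thus below Control in every DKO library without passing the threshold. By TMM-scaled CPM the same held for 75.3% of 4708 nuclear protein-coding genes with at least 1000 summed Control reads. Scaled on abundant liver genes, the log2 fold changes were 0.89 for Ctnnb1 and 3.90 for Jup. These values therefore do not set the targeted genes apart, and the directions below are between libraries as labelled.

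Of the 10 genes, 2 fell in DKO and 0 rose. Fasn and Dgat1 passed an adjusted p under 0.05 in edgeR's quasi-likelihood test, fitted and adjusted over all 15561 genes tested, and the other 8 did not. At an unadjusted p under 0.05 edgeR gave 4 lower and 0 higher, DESeq2 gave 7 lower and 1 higher after adjustment, and limma-voom gave 1 lower and 0 higher. Over all genes tested, 12.8% passed as lower and 31.3% as higher in edgeR. Of these genes, 4462 reached the minimum level for testing, 1.45 CPM in 3 libraries, only with the help of DKO libraries, and 89.3% of them passed as higher. Over the other 11099 genes, 17.9% passed as lower and 7.97% as higher. Among 4708 nuclear protein-coding genes with at least 1000 summed Control reads, a level that every one of the 10 genes exceeded, 22.6% passed as lower and 0.722% as higher. The share of 2 in 10 is therefore near that of other genes of such abundance. DESeq2 called 64.2% of these abundant genes lower and 2.21% higher, and limma-voom 13.2% and 0.658%. By CPM scaled with edgeR's TMM factors, 9 of the 10 genes had every DKO library below every Control library, and 1, Acaca, had every DKO library above. The same was true of 36.4% of all genes for below and 34.0% for above, and of 75.3% and 3.19% of the 4708 abundant genes. The median log2 fold change was -2.16 over the 10 genes, -1.90 over the abundant genes and -0.08 over all genes. The direction depends on the scaling: scaling on abundant liver genes moved the median of all genes by 4.76 on the log2 scale and turned 6 of the 10 genes positive (Srebf1, Fasn, Acacb, Acly, Scd1 and Gpam). Set against the median of all genes under the same setting, the median of the 10 was -2.08 with TMM, -2.90 on abundant liver genes and -0.74 after subtraction of background reads. The median of all genes includes the 4462 genes tested only with the help of DKO libraries, whose median log2 fold change was 7.34 with TMM. Over the other 11099 genes it was -1.175, so these differences are not a deficit particular to the 10. In these whole-liver libraries, fewer hepatocytes, less RNA per hepatocyte and a low content of liver RNA in the library itself cannot be told apart.

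**Figure D1:**
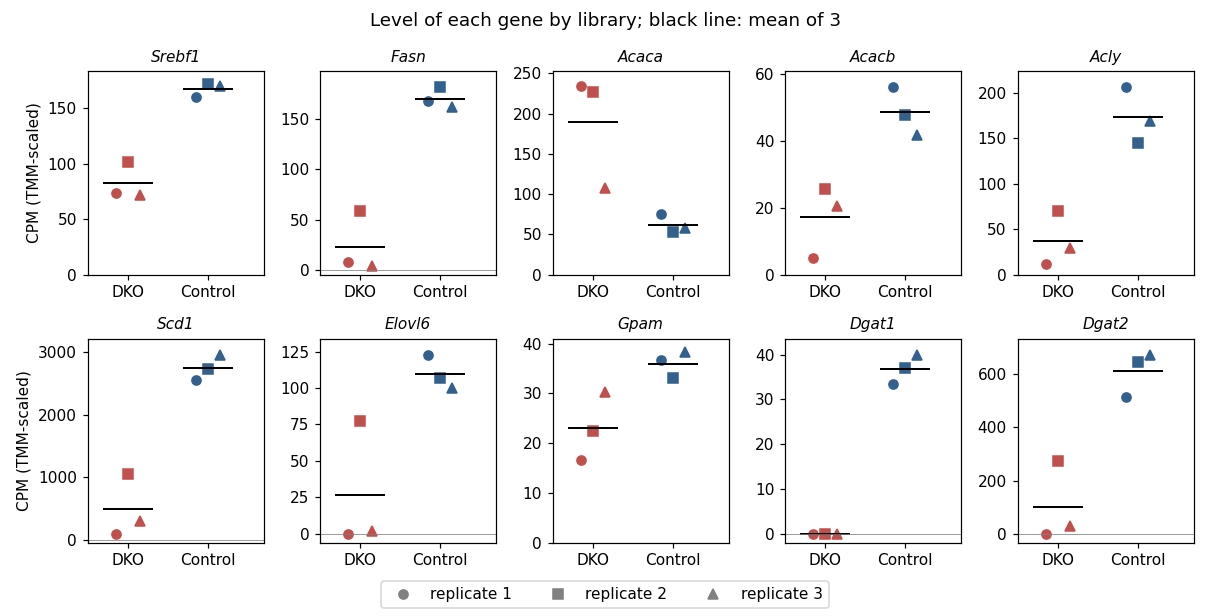
TMM-scaled CPM of each of the 10 genes in the 3 DKO libraries (left in each panel) and the 3 Control libraries (right); points are libraries, the black line is the mean, and each panel has its own axis. Acaca is the 1 gene with all DKO points above all Control points, and Dgat1 lies at 0 in all 3 DKO libraries.

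Which libraries enter decided how many of the 10 passed. Without DKO replicate 1, 4 passed as lower and 1 as higher, and without DKO replicate 2, 7 passed as lower and 0 as higher. Without DKO replicate 3, 1 passed as lower and 1 as higher. Calls moved in the same way over the 4708 abundant genes, of which 53.3%, 60.9% and 19.0% passed as lower without DKO replicate 1, 2 or 3 in turn, and 2.08%, 0.956% and 1.61% as higher. Without Control replicate 1, 2 or 3 in turn, 1 of the 10 passed as lower and 0 as higher, against 6.78% to 7.41% and 0% of the abundant genes. DKO replicate 2, which held the most liver RNA, was also set alone against the 3 Control libraries, a choice made after seeing the data. It then gave 7 lower and 1 higher on the TMM scale, where 63.5% and 5.31% of the abundant genes passed. Scaled on abundant liver genes it gave 1 lower and 3 higher, against 9.81% and 32.8% of the abundant genes.

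Srebf1 (ENSMUSG00000020538, chromosome 11, 60199089 to 60222581, minus strand, mm10) did not pass. It had 58, 59 and 66 reads in DKO replicates 1, 2 and 3, against 2097, 1882 and 1631 in Control replicates 1, 2 and 3. The DKO libraries gave almost the same number of reads, and all 3 lay below Control once scaled. The level was 82.2 ± 16.7 CPM in DKO and 167 ± 6.13 CPM in Control (SD, n = 3 each). Its log2 fold change was -1.02 (SE 0.68; edgeR adjusted p = 0.230). The gene overlaps Rai1 on the other strand and 2 microRNA genes on its own, and the sources used here do not state whether counting used strand, so some of its reads may belong to those.

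Acly (ENSMUSG00000020917, chromosome 11, 100476353 to 100528000, minus strand), the enzyme that supplies cytosolic acetyl-CoA, missed the threshold narrowly. Its reads numbered 9, 41 and 27 in the DKO libraries, against 2696, 1586 and 1629 in the Control libraries. Every scaled DKO value was below every Control value, and DKO replicate 2 was the highest of the DKO values. The level was 37.1 ± 30.3 CPM in DKO and 173.2 ± 30.8 CPM in Control (SD, n = 3 each), with a log2 fold change of -2.24 (SE 0.82) and an edgeR adjusted p of 0.0517. Under other settings it did pass, for example with an edgeR adjusted p of 0.0159 without DKO replicate 1 and of 0.00879 without DKO replicate 2.

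The carboxylases stood on opposite sides of Control. Acaca (ENSMUSG00000020532, chromosome 11, 84129672 to 84401651, plus strand) had 184, 132 and 99 reads in DKO and 991, 584 and 559 in Control. Its scaled level was 189.5 ± 71.4 CPM in DKO and 62.3 ± 11.8 CPM in Control (SD, n = 3 each), so that all DKO libraries lay above Control. The log2 fold change was 1.60 (SE 0.73) with an edgeR adjusted p of 0.0966, which did not pass. It passed without DKO replicate 1 (edgeR adjusted p = 0.0391) and without DKO replicate 3 (edgeR adjusted p = 0.0363). Acaca has the longest merged exons of the 10 genes, 17074 bases, and overlaps the predicted genes Gm11437 on the other strand and Gm37391 on its own.

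Acacb (ENSMUSG00000042010, chromosome 5, 114146535 to 114250761, plus strand) had 4, 15 and 19 reads in DKO and 736, 525 and 403 in Control. The scaled DKO values were all below Control, at 17.2 ± 10.8 CPM in DKO and 48.6 ± 7.18 CPM in Control (SD, n = 3 each). The log2 fold change of -1.52 (SE 0.66) had an edgeR adjusted p of 0.0884. Without DKO replicate 1 or 2, the edgeR adjusted p was 0.0240 or 0.0302. The gene overlaps the predicted gene Gm13784 on the other strand.

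Fasn (ENSMUSG00000025153, chromosome 11, 120805846 to 120824547, minus strand), whose promoter is printed above, fell. It had 6, 34 and 4 reads in the DKO libraries, against 2196, 1990 and 1556 in the Control libraries. DKO replicates 1 and 3 were close to 0, and DKO replicate 2 was also below every Control library. The level was 23.5 ± 30.4 CPM in DKO and 170.2 ± 10.1 CPM in Control (SD, n = 3 each), with a log2 fold change of -2.89 (SE 1.01) and an edgeR adjusted p of 0.0427. The call was lost without DKO replicate 3 (edgeR adjusted p = 0.0734) and without Control replicate 1, 2 or 3 (0.108, 0.0968 and 0.0967). Scaling on abundant liver genes turned the log2 fold change to 1.19 (edgeR adjusted p = 0.494).

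Elovl6 (ENSMUSG00000041220, chromosome 3, 129532355 to 129638495, plus strand) had 0, 45 and 2 reads in DKO and 1607, 1172 and 962 in Control. Nearly all of its DKO reads came from replicate 2. The mean was 26.5 ± 44.1 CPM in DKO, with an SD larger than the mean, and 109.8 ± 11.6 CPM in Control (SD, n = 3 each). The log2 fold change of -2.09 (SE 1.32) had an edgeR adjusted p of 0.208, and without DKO replicate 2 it was -6.71 with an edgeR adjusted p of 0.00264.

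Scd1 (ENSMUSG00000037071, chromosome 19, 44394455 to 44407879, minus strand), the main desaturase of liver, gave the most reads of the 10 genes in every library except DKO replicate 1, where Acaca gave more. It had 80, 614 and 285 reads in DKO and 33479, 29952 and 28379 in Control. Every scaled DKO value was below Control, and DKO replicate 1 was the lowest. The level was 488.7 ± 502 CPM in DKO and 2745 ± 197 CPM in Control (SD, n = 3 each), and the log2 fold change was -2.49 (SE 1.31; edgeR adjusted p = 0.142). Without DKO replicate 2 the log2 fold change was -3.90 with an edgeR adjusted p of 0.0209.

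Gpam (ENSMUSG00000024978, chromosome 19, 55067268 to 55127238, minus strand), which starts glycerolipid assembly, had the smallest change of the 10 on the TMM scale. It had 13, 13 and 28 reads in DKO and 480, 362 and 369 in Control. The level was 23.1 ± 6.90 CPM in DKO and 36.0 ± 2.73 CPM in Control (SD, n = 3 each). The groups did not overlap, but the log2 fold change of -0.64 (SE 0.54) had an edgeR adjusted p of 0.343. The direction depended on the scaling. On abundant liver genes the log2 fold change was 4.70 and passed as higher (edgeR adjusted p = 0.0274), and with library size as the only scaling it was 0.0073 (edgeR adjusted p = 0.995).

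Dgat1 (ENSMUSG00000022555, chromosome 15, 76502015 to 76511953, minus strand), one of the enzymes that complete triglyceride, fell. It had 0 reads in each DKO library, against 437, 405 and 384 in the Control libraries. The Control level was 36.7 ± 3.28 CPM (SD, n = 3), and a floor of 3 reads over the DKO libraries corresponds to 1.31 CPM. Against that floor Dgat1 was at least 27.8-fold lower in DKO on the TMM scale, with an edgeR adjusted p of 0.00113. On the scale of abundant liver genes the bound was at least 3.37-fold lower. The call held under all 18 alternatives, with edgeR, DESeq2 or limma-voom adjusted p-values of at most 0.0113. A complete absence of reads was rare: 6 of the 4708 abundant genes (0.127%) had 0 reads in all 3 DKO libraries, Dgat1 among them, and 5 of the 1244 with at most 1500 summed Control reads (0.402%).

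Dgat2 (ENSMUSG00000030747, chromosome 7, 99153658 to 99182719, minus strand), the other enzyme of that step and the more abundant in liver, did not pass. It had 1, 159 and 26 reads in DKO and 6708, 7060 and 6443 in Control. DKO replicates 1 and 3 were far below Control and replicate 2 less so. The level was 101.0 ± 150 CPM in DKO and 608.3 ± 84.4 CPM in Control (SD, n = 3 each), and the log2 fold change was -2.60 (SE 1.50; edgeR adjusted p = 0.175). Without DKO replicate 2 the log2 fold change was -5.51 with an edgeR adjusted p of 0.0144.

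The Control libraries are deep enough to order the genes by level. Levels between genes were compared as reads per kb of merged exon per 1000000 gene reads (RPKM), averaged over the 3 Control libraries. Scd1 led with 447 ± 21 RPKM, followed by Dgat2 with 156.9 ± 17.4 RPKM, and no other gene came near them. Acly (26.3 ± 5.43 RPKM) and Srebf1 (23.6 ± 0.27 RPKM) overlapped in range, as did Elovl6 (13.7 ± 1.87 RPKM) and Fasn (12.4 ± 0.77 RPKM). Dgat1 had 9.57 ± 0.60 RPKM. At the low end, Gpam (4.31 ± 0.36 RPKM), Acacb (4.04 ± 0.72 RPKM) and Acaca (2.92 ± 0.65 RPKM) formed a run in which each gene overlapped its neighbour. All errors here are SD over 3 libraries, and 4 of the 9 neighbouring comparisons overlapped. Scd1 exceeded Dgat2 by 2.85-fold, and Dgat2 exceeded Acly by 5.98-fold. With the length of the longest transcript in place of merged exons, the first 4 places stayed and all later ones changed. Dgat1 moved to the fifth place with 15.5 RPKM, ahead of Elovl6 and Fasn, and Acaca to the eighth with 5.24 RPKM, ahead of Gpam and Acacb.

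**Figure D2:**
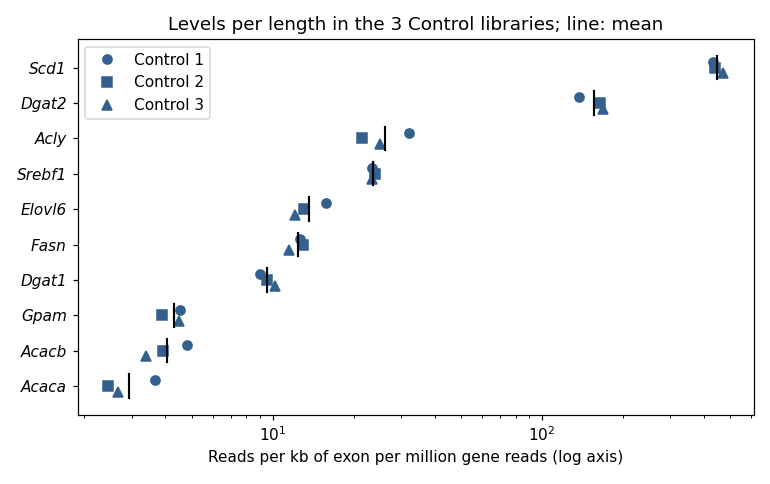
Reads per kb of exon per 1000000 gene reads of the 10 genes in the 3 Control libraries, on a log axis; points are libraries and the line is their mean. Scd1 and Dgat2 stand apart at 447 and 156.9, and the other 8 genes lie between 2.92 and 26.3.

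The genes differed in how far the Control libraries varied. Srebf1 was the steadiest, with a coefficient of variation of 1.14%, lower than in all but 0.828% of the 4708 abundant genes. Scd1 (4.71%), Fasn (6.24%), Dgat1 (6.24%) and Gpam (8.37%) varied less than the median abundant gene, at 9.54%. Dgat2 (11.1%), Elovl6 (13.7%), Acacb (17.8%), Acly (20.7%) and Acaca (22.1%) varied more. Control replicate 1 was the high library for Acaca, Acly, Acacb and Elovl6, by 0.52, 0.47, 0.40 and 0.32 on the log2 scale over the mean of the other two. It was the low library for Dgat2, by -0.28 on the log2 scale. Other genes of the pathway differed there more. Thrsp, a lipogenic nuclear protein induced by carbohydrate feeding, had 417, 1017 and 1029 CPM without TMM scaling in Control replicates 1, 2 and 3. G0s2, an inhibitor of the lipase Pnpla2, had 178, 60.8 and 71.6 CPM, and Plin2, a coat protein of lipid droplets, had 402, 200.6 and 248 CPM. These 3 genes were picked for this after their values were seen.

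Because the DKO libraries contain reads from outside liver transcripts, the counts were set beside those expected from liver and from background. The liver part is the mean Control count multiplied by the library's scale, the median ratio of 163 abundant liver genes to their Control mean. Background reads were not subtracted before this ratio was taken, so the scale can include some, and background then enters the expectation again. That scale was 1 part in 2150, 53.1 and 182 of Control for DKO replicates 1, 2 and 3. The 163 genes are the nuclear protein-coding genes with over 30000 summed Control reads. Scd1 is among them, so its ratio is not independent of the scale. The background part is the read density of 8600 protein-coding genes with at most 10 Control reads, matched on GC content and multiplied by exon length. Over those genes it averaged 1.34, 0.968 and 2.40 reads per kb in DKO replicates 1, 2 and 3, against 0.0878 to 0.157 in Control. Intervals below are exact 95% Poisson intervals of the count and cover counting error only. The background of a single gene can lie far from the expectation. Among background genes with at least as much expected as Dgat1, 42.9%, 36.8% and 16.8% had no read in DKO replicates 1, 2 and 3, while 5% had over 4.82, 4.13 and 3.81 times the expected number.

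In DKO replicate 2 the interval of the ratio of observed to expected reads covered 1 for 4 of the 10 genes, lay above 1 for 4 and below 1 for 2. Scd1 had 614 reads, against 576.5 expected from liver and 5.75 from background, a ratio of 1.05 (0.973 to 1.14). Dgat2 had 159, against 126.9 and 3.95, a ratio of 1.22 (1.03 to 1.42). For Acly the ratio was 0.932 (0.669 to 1.26), for Gpam 0.842 (0.449 to 1.44; 13 reads against 7.60 from liver and 7.83 from background) and for Acacb 0.658 (0.369 to 1.09). These 5 genes stayed within the middle range of the abundant genes, whose quartiles were 0.634 and 1.42. Srebf1 also lay within it, with 59 reads against 35.2 from liver and 8.18 from background (ratio 1.36, 1.03 to 1.75).

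Of the remaining genes, Acaca, Elovl6 and Dgat1 lay outside the quartiles in that library. Acaca had 132 reads, against 13.4 from liver and 20.1 from background, a ratio of 3.95 (3.30 to 4.68), which exceeded 98.4% of the abundant genes. Elovl6 had 45 reads against 29.1 in total, a ratio of 1.55 (1.13 to 2.07). Fasn had 34, against 36.1 from liver and 15.9 from background, a ratio of 0.655 (0.453 to 0.915), still between the quartiles. Dgat1 had 0, against 7.70 from liver and 3.91 from background, so that the ratio is at most 0.318. A count of 0 has an upper limit of 3.69 reads, below the 7.70 expected from liver alone.

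DKO replicates 1 and 3 were further from Control proportions. In DKO replicate 1 all 10 genes together were expected to give 21.6 reads from liver and 122 from background, and they gave 355. Acaca (184 reads against 31.3 in total), Srebf1 (58 against 10.2) and Scd1 (80 against 23.1) supplied most of the excess. Elovl6 had 0 reads against 9.64 expected, and Dgat1 had 0 against 4.84. A count of 0 was common in this library, where the quartiles of the ratio over the 4708 abundant genes were 0 and 1.90. In DKO replicate 3 the sum was 556, against 255 from liver and 219.9 from background. There Scd1 had 1.56 times the expectation (1.38 to 1.75), Srebf1 2.34 times (1.81 to 2.98) and Acaca 1.80 times (1.46 to 2.19). The quartiles of the abundant genes in this library were 0.551 and 2.15, so Scd1 and Acaca lay between them and Srebf1 above. Fasn had 4 reads against 45.3 (ratio 0.0883, 0.0241 to 0.226), and Elovl6 had 2 against 19.4 (ratio 0.103, 0.0125 to 0.372). Both counts were below what background alone was expected to give, 34.8 for Fasn and 12.5 for Elovl6. Dgat1 had 0 against 12.2, a ratio of at most 0.301.

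Over the 10 genes, the median ratio of observed to expected reads was 0.584, 0.993 and 0.753 in DKO replicates 1, 2 and 3. Over the 4708 abundant genes it was 0.577, 0.993 and 1.15. In DKO replicates 1 and 2, the 10 genes as a group thus sat at the level of other abundant genes. The numbers above expectation were 4, 5 and 4 of 10, against 39.1%, 49.5% and 55.7% of the abundant genes. In all 3 DKO libraries, Acaca, Srebf1 and Scd1 were above 1, and Fasn, Acacb, Acly and Dgat1 were below 1. However, the interval covered 1 for Acly in all 3 and for Scd1 and Acacb in DKO replicate 2, so their side is not settled there.

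**Figure D3:**
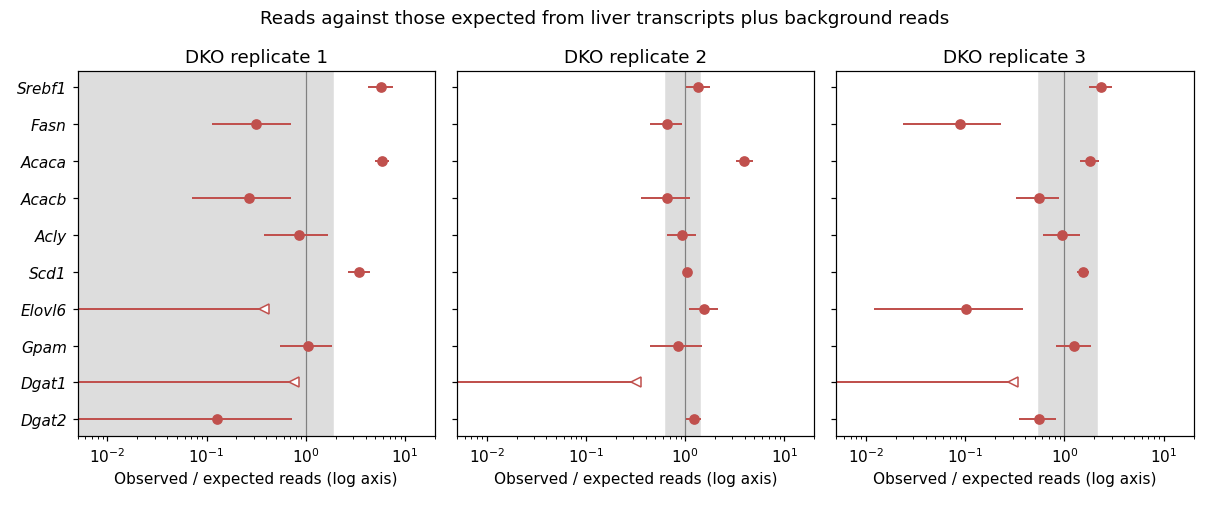
Observed over expected reads of the 10 genes in DKO replicates 1, 2 and 3, on a log axis, where expected is the sum of liver transcripts at Control proportions and background; bars are 95% Poisson intervals of the count, open triangles are upper limits of genes with 0 reads, and the grey band spans the quartiles of 4708 abundant genes. In DKO replicate 2, Scd1 sits at 1.05 and Acaca at 3.95, and Dgat1 is an upper limit in all 3 libraries.

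Shares and ratios between the genes need no scale across libraries, but background moves them too, so each DKO value is given with that expected from liver and background together. Scd1 took 22.5%, 55.2% and 51.3% of the reads of the 10 genes in DKO replicates 1, 2 and 3, against 66.0 ± 1.00% in Control (SD, n = 3). The expected shares were 16.1%, 60.3% and 38.5%, so that Scd1 was above expectation in replicates 1 and 3 and below it in replicate 2, although below Control in all 3. Acaca took 51.8%, 11.9% and 17.8% in DKO, against 1.51 ± 0.36% in Control. Expected were 21.8%, 3.47% and 11.6%, and the Wilson 95% intervals (46.6% to 57.0%, 10.1% to 13.9% and 14.9% to 21.2%) lay above both these and every Control share. Srebf1 took 16.3%, 5.31% and 11.9% in DKO, against 4.02 ± 0.15% in Control. Expected were 7.07%, 4.50% and 5.93%, and in replicate 2 the interval (4.14% to 6.78%) covered the expectation. Dgat2 took 0.282%, 14.3% and 4.68% in DKO, against 14.6 ± 1.35% in Control, so that replicate 2 was at the Control share and the others were below it. Expected were 5.45%, 13.6% and 9.92%, and again replicates 1 and 3 were below.

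**Figure D4:**
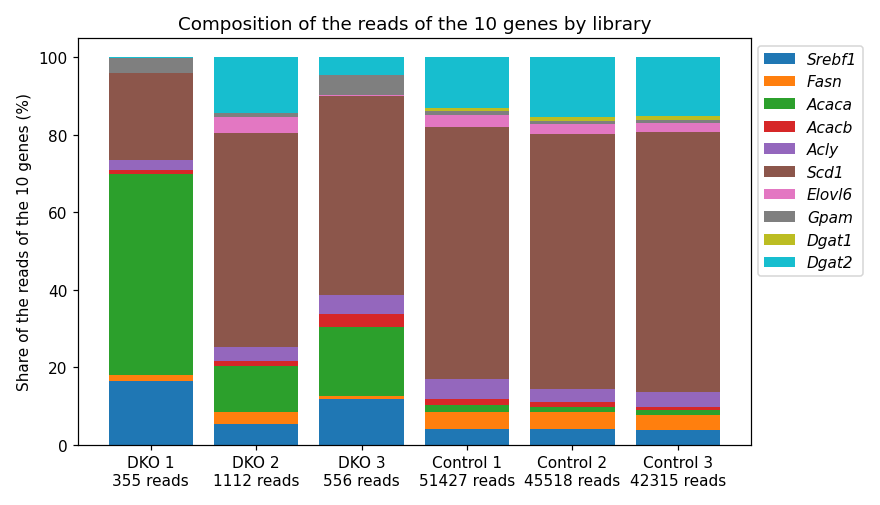
Share of each gene among the reads of the 10 genes, in percent, in the 3 DKO libraries (left) and the 3 Control libraries (right); the total number of reads is under each bar. Scd1 takes 66.0% on average in Control, and Acaca takes 11.9% to 51.8% in DKO.

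Acaca exceeded Acacb by 46-fold, 8.80-fold and 5.21-fold in reads in DKO replicates 1, 2 and 3, against 1.28 ± 0.15 in Control (SD, n = 3). The lower exact 95% limit of the smallest DKO value was 3.17, above the highest Control library at 1.39. Liver and background together gave expected ratios of 2.10, 1.47 and 1.59, and every DKO interval lay above its own. The ratio of Scd1 to Fasn reads was 13.3, 18.1 and 71.3 in DKO, against 16.2 ± 1.79 in Control. In DKO replicates 1 and 2 the interval of this ratio covered the Control mean (5.86 to 37.4 and 12.8 to 26.3), and in replicate 3 it did not (27.5 to 263). All 3 intervals lay above the expected ratios of 1.22, 11.2 and 4.04. Dgat2 had at least 42.6 times the reads of Dgat1 in DKO replicate 2, by the lower exact limit, against 16.5 ± 1.07 in Control. In DKO replicates 1 and 3 the lower limits were 0.0256 and 6.56 and did not separate them from Control. The expected ratios were 1.62, 11.3 and 3.85.

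Srebf1 was also read against the regulators beside it. Srebf2 encodes SREBP-2, which drives cholesterol synthesis, and the ratio of Srebf1 to Srebf2 reads was 3.05, 3.93 and 1.03 in DKO, against 5.68 ± 0.85 in Control (SD, n = 3). Mlxipl encodes ChREBP, the factor that responds to glucose, and the ratio of Mlxipl to Srebf1 reads was 0, 1.41 and 1.21 in DKO, against 3.29 ± 0.52 in Control. Every DKO library was below every Control library in both ratios. Against liver and background together they stood differently. For Srebf1 to Srebf2 the expected ratios were 0.847, 2.60 and 1.14, and the DKO interval was above in replicate 1 (1.79 to 5.43) and covered the expectation in replicates 2 and 3. For Mlxipl to Srebf1 the expected ratios were 1.12, 2.85 and 1.85, and all 3 DKO intervals lay below.

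Other genes of lipid metabolism were read from the same fit in 6 lists of 82 genes, of which 79 were tested. Of these, 13 passed as lower in DKO (16.5%) and 4 as higher (5.06%), against 22.6% and 0.722% of the abundant genes, and their median log2 fold change was -2.32, against -1.90. Every DKO library was below every Control library for 57 of them (72.2%) and above for 4 (5.06%), against 75.3% and 3.19% of the abundant genes. Not all 79 are abundant in this sense, and none of the 4 passing as higher reached 1000 summed Control reads. The share passing as higher therefore has no like comparison among the abundant genes. Of the 77 that reached the minimum level for testing in all Control libraries, 16.9% passed as lower and 2.60% as higher. Over the 11099 genes of all kinds that did so, the shares were 17.9% and 7.97%. The lower share is thus no more than that of the abundant genes or of these 11099. Of the 4 passing as higher, Pnpla3 and Agpat4 reached the minimum level for testing only with the help of DKO libraries, and their calls are not counted as support below. These counts, too, moved with the libraries used. Without DKO replicate 1, 2 or 3 in turn, 39, 51 or 8 were called lower (49.4%, 64.6% or 10.1%, against 53.3%, 60.9% or 19.0% of the abundant genes) and 7, 3 or 3 higher. Without any 1 Control library 4 were called lower and 3 higher. Scaled on abundant liver genes, 0 were called lower and 22 higher (27.8%, against 25.3% of the abundant genes), so the words below hold for TMM scaling.

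Of the 17 regulators, 3 fell (17.6%) and 1 rose. Nr1h2, which encodes the oxysterol receptor LXRβ, fell, with 0, 1 and 3 reads in DKO and 608, 567 and 464 in Control (log2 fold change -4.81, edgeR adjusted p = 0.00165). Mlx, the partner of ChREBP, and Usf2, an E-box factor, fell as well. Ppargc1b, a coactivator of SREBP-1, rose, with 50, 15 and 126 reads in DKO and 135, 58 and 59 in Control (log2 fold change 3.38, edgeR adjusted p = 0.00485). Its DKO reads compare with 6.61, 7.37 and 13.1 expected. Mlx and Usf2 are named here, like the other genes below given without values, because the counts are small, after their values were seen.

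Of 11 genes that supply acetyl-CoA, NADPH and glycerol phosphate, 0 passed in edgeR in either direction, and their median log2 fold change was -2.23. At an unadjusted p under 0.05 edgeR gave 5 lower and 0 higher. After adjustment DESeq2 gave 9 lower and 0 higher, and limma-voom gave 0 in either direction. Of the abundant genes, DESeq2 called 64.2% lower and limma-voom 13.2%. The nearest to the threshold were Gpd1, which makes glycerol-3-phosphate (log2 fold change -3.37, edgeR adjusted p = 0.0548), and Pklr, the liver pyruvate kinase (-2.33, edgeR adjusted p = 0.0645). Of 12 other elongation and desaturation genes, 5 fell (41.7%, against 22.6% of the abundant genes) and 0 rose, with a median log2 fold change of -2.82. None rose at an unadjusted p under 0.05, in DESeq2 or in limma-voom either. Fads3 had 0, 0 and 1 reads in DKO and 208, 128 and 120 in Control (log2 fold change -4.90, edgeR adjusted p = 0.00599). Tecr, the last enzyme of the elongation cycle, had 7, 19 and 3 reads in DKO and 2127, 1809 and 1454 in Control (log2 fold change -3.46, edgeR adjusted p = 0.0122). The others were Scd2, Elovl5 and Hacd2. Of these 5, Scd2 and Fads3 had fewer than 1000 summed Control reads, unlike the abundant genes.

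Of 13 other glycerolipid assembly genes 11 were tested, and 1 fell (9.09%) and 1 rose, apart from Agpat4. Gpat3, a glycerol-3-phosphate acyltransferase of the endoplasmic reticulum, rose, with 64, 30 and 31 reads in DKO and 91, 47 and 30 in Control (log2 fold change 3.53, edgeR adjusted p = 0.00198). Its DKO reads compare with 6.38, 5.17 and 10.8 expected. Lpin2, a phosphatidate phosphatase, fell, with 31, 61 and 42 reads in DKO and 6113, 4332 and 4014 in Control (log2 fold change -2.76, edgeR adjusted p = 0.0358). Agpat4 had 1, 2 and 23 reads in DKO and 29, 6 and 2 in Control, and its groups overlapped in scaled level.

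Of 18 genes of lipid droplets, lipolysis and export 17 were tested, and 4 fell (23.5%, against 22.6% of the abundant genes) and 0 rose, apart from Pnpla3. Pnpla3, a lipid droplet protein induced by SREBP-1, had 9, 56 and 61 reads in DKO and 1, 10 and 5 in Control. Its DKO reads compare with 2.55, 2.35 and 4.95 expected. The log2 fold change was 6.81, but at 0.063 to 0.717 CPM without TMM scaling in Control the gene was tested only because it was high in DKO, and no p is given. Fitm2, which acts in droplet formation, fell, with 5, 10 and 17 reads in DKO and 1023, 897 and 856 in Control (log2 fold change -2.57, edgeR adjusted p = 0.00781). G0s2, the lipase Pnpla2 and its activator Abhd5 fell too. Of 11 genes of fatty acid uptake, binding and activation, 0 passed in edgeR, and the smallest edgeR adjusted p-values were 0.0797 for Acsl5 and 0.107 for Acsl1, both acyl-CoA synthetases. At an unadjusted p under 0.05 edgeR gave 1 lower and 0 higher in this list. After adjustment DESeq2 gave 6 of the 11 lower and 0 higher, against 64.2% of the abundant genes lower. Limma-voom gave 0 in either direction, against 13.2% lower.

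**Figure D5:**
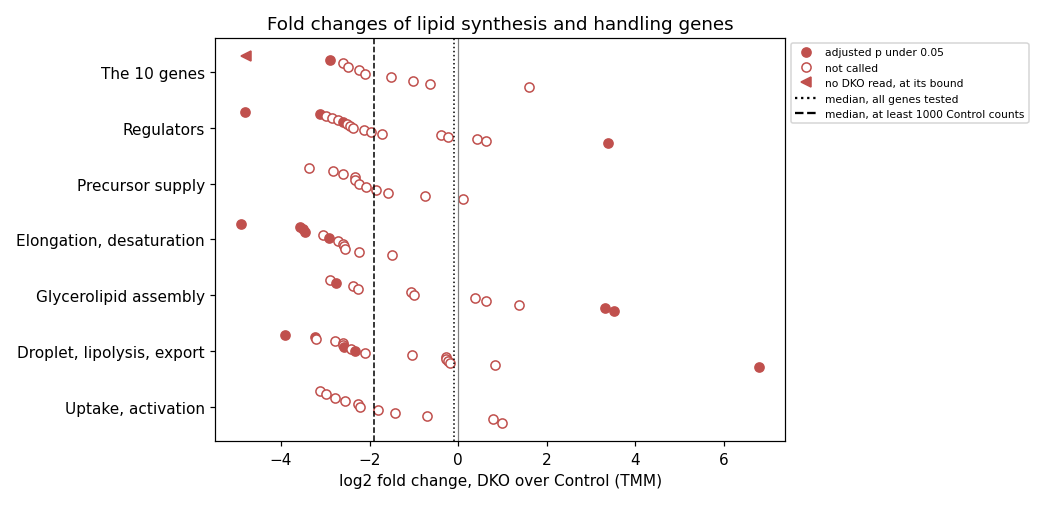
TMM log2 fold changes, DKO over Control, of the 10 genes and of 6 lists of other lipid genes; filled points passed an adjusted p under 0.05, the triangle is Dgat1 at its bound, and dotted and dashed lines are the medians of all genes (-0.08) and of genes with at least 1000 Control reads (-1.90). Most points lie to the left of the dotted line, and Pnpla3, tested only because it was high in DKO, lies farthest to the right at 6.81.

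Some genes outside the pathway followed the same pattern over the 6 libraries. Likeness was the root mean square difference in centred log2 CPM from the mean profile of the 10 genes, among 3199 other genes with at least 50 Control CPM. The closest were Rac1 (0.0994 on the log2 scale), Slc25a15 (0.106) and Kyat1 (0.110). Rac1 had 5, 25 and 15 reads in DKO and 1560, 1267 and 1227 in Control.

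Markers of the cells in the samples moved with the groups as well. The 10 hepatocyte markers summed to 1750 to 47568 CPM, without TMM scaling, in DKO and 100457 to 113799 CPM in Control. White fat expresses the same synthesis genes, and its 8 markers summed to 67.1 to 122.7 CPM in DKO and 31.5 to 40.8 CPM in Control. Of these, Plin1 had 1, 17 and 8 reads in DKO and 0 in every Control library, Cfd had 22, 18 and 12 reads in DKO and 0, 4 and 0 in Control, and Retn had 0, 0 and 21 in DKO and 0 in every Control library. The defining hormones of white fat were near 0 in both groups, with 0 Adipoq reads in DKO and 1, 1 and 0 in Control. Lep and Cidea had 0 reads in all 6 libraries. Adrb3 gave the most Control reads of the list, 443, 291 and 311, and had 1, 13 and 0 in DKO. Fabp4 had 14, 9 and 59 reads in DKO and 204, 143 and 158 in Control. Lymphocyte markers also separated the groups, and 5 of them summed to 56.3 to 119 CPM in DKO and 1.95 to 4.22 CPM in Control. Most of those DKO reads were from Cd3e, a T cell receptor subunit, which had 32, 31 and 75 reads in DKO and 6, 2 and 0 in Control, against 5.75, 3.59 and 7.97 expected. Without Cd3e, left out after its values were seen, the sum was 6.04 to 16.1 CPM in DKO and 1.95 to 3.84 CPM in Control. That is only 5, 7 and 9 reads in DKO replicates 1, 2 and 3. In DKO replicate 1, Ms4a1 alone was expected to give 6.60 reads. Cd79a had 0, 0 and 1 reads in DKO and 31, 19 and 19 in Control. Kupffer cell markers summed to 51.7 to 123.8 CPM in DKO and 178 to 241 CPM in Control. Bile duct markers summed to 145 to 326 CPM in DKO and 62.4 to 83.7 CPM in Control, but not all moved alike. Most of those DKO reads were from Sox9, which had 78, 67 and 126 reads in DKO and 109, 32 and 39 in Control. Most of the Control reads were from Spp1, which had 1117, 810 and 745 in Control and 9, 24 and 13 in DKO. Endothelial markers (150.2 to 759 CPM in DKO, 176 to 326 CPM in Control), stellate cell markers (198 to 749 CPM in DKO, 196 to 339 CPM in Control) and red cell markers (174 to 589 CPM in DKO, 273 to 289.6 CPM in Control) overlapped between the groups. At least 1 read in some library was found in DKO for 10 of 10 hepatocyte, 5 of 8 fat and 4 of these 5 lymphocyte markers, and for every marker of the other 5 lists. The part of these shifts in the results above was not tested.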

How the data were processed

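RNA-seq gene counts of 3 DKO and 3 Control liver libraries were analysed, grouped by sample title. The authors deposited raw counts of reads per Ensembl gene. Per the submitters' processing notes, STAR and HTSeq were used with mm10. Tool versions, kit, annotation release and strand setting were not stated in the sources used here. Each library lists 43346 genes and 5 rows without a gene, and these rows took 95.3% to 97.3% of reads in DKO and 65.1% to 66.7% in Control and were left out. Names came from a gene name table (42462 IDs matched, 884 did not), positions and exon lengths from GENCODE M21 on mm10, and promoters from RefSeq.

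The test was edgeR 4.0.16 (R 4.3.3), the robust quasi-likelihood fit with TMM, filterByExpr by group and Benjamini-Hochberg adjustment, two-sided, without covariates. The spread over all libraries was 63.9% (biological coefficient of variation). Alternatives used DESeq2 1.42.0, limma 3.58.1, other scalings and filters, background subtraction, a replicate block and each library left out. No 2 libraries held identical values or agreed within sampling noise. Without molecular identifiers, the intervals and floors cover only counting error.

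The genes, lists and tests were chosen with earlier results of these data known. Named genes are the 10, Ctnnb1, Jup and Alb, up to 2 genes per pathway list with the smallest adjusted p, and the 3 genes most like the 10. The use of DKO replicate 2 alone was added after seeing the data. One marker gene is not reported here.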

Additional observations from a re-analysis of the deposited data

Results flagged for a closer look

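A signal outside the gene counts differed between the groups. Reads aligned uniquely outside annotated genes made up 66.7 ± 6.44% of reads in the DKO libraries (61.0% to 73.7%) and 38.9 ± 1.51% in the Control libraries (37.8% to 40.6%; SD, n = 3 each). Its part in the levels of the 10 genes was not tested.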

How the results depend on the processing

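The call of Dgat1 as lower held under all 18 alternatives, and that of Fasn under 9 of them. For Dgat1 the alternatives all use the same counts of 0. Counts below are genes lower and higher, against 2 and 0 of the 10 genes, 13 and 4 of the 79 pathway genes and 1992 and 4871 of all genes. DESeq2 gave 7 and 1 of the 10, 51 pathway genes lower and 4776 genes lower. DESeq2's size factors in edgeR gave 4 of the 10 lower, 44 pathway genes lower and 3577 genes lower. Upper-quartile scaling gave 1 of the 10 higher and 26 pathway genes lower, and limma-voom gave 1 of the 10 lower. Library size alone gave 1 and 1 of the 10 and 8 pathway genes lower, and turned Gpam to 0.0073 (log2). Without the filter, 6 of the 10, 51 pathway genes and 4650 genes were lower and 11477 genes higher. Subtracting background left 1 of the 10 and 7 pathway genes lower and 2301 genes higher.

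Scaling on abundant liver genes gave 1 and 3 of the 10, 0 and 22 pathway genes and 85 and 9718 of all genes. It reversed Srebf1 (log2 fold change 4.62), Fasn (1.19), Acacb (2.76), Acly (2.08), Scd1 (1.47), Gpam (4.70), Ctnnb1 (0.89) and Jup (3.90). DKO replicate 2 alone, added after seeing the data, gave 7 and 1 of the 10, 47 pathway genes lower and 4374 genes lower. On the abundant-gene scale it gave 1 and 3 of the 10, 3 and 19 pathway genes and 771 genes lower, and reversed Srebf1 (0.75), Acacb (0.54), Acly (0.16), Scd1 (0.091), Elovl6 (0.96), Gpam (0.78) and Dgat2 (0.32). There the lone library is assumed to vary like the Control libraries, and the fit compares that library.

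With each library left out in turn, 1 to 7 of the 10 were lower and 0 to 1 higher, 4 to 51 pathway genes lower and 3 to 7 higher, and 567 to 4492 genes lower and 4130 to 5624 higher. The replicate numbers did not pair the libraries (correlations of same-numbered deviations 0.121, 0.0726 and -0.0204). The replicate block gave 25 pathway genes lower and 3 of the 10. The median ratios of observed to expected reads (0.572 to 1.02 under other choices) moved little. With the length of the longest transcript, 5 neighbouring Control levels overlapped in place of 4, places 5 to 10 of the order changed, and Acaca had 5.24 in place of 2.92 RPKM. The causes of these changes were not tested. At the depth of the DKO libraries, genes with few expected liver reads cannot be told from background.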
